A study of Mus musculus with 10 samples.

Results

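Polyamines (putrescine, spermidine and spermine) are small positively charged molecules that bind RNA and DNA and are needed for growth and translation. Putrescine is made from ornithine by ornithine decarboxylase, spermidine and spermine are then built with aminopropyl groups from decarboxylated S-adenosylmethionine, and the chain is shortened again by acetylation and oxidation. In skeletal muscle the pathway is known to respond to androgen, exercise and disuse. The genes described here are 10 genes of that cycle, out of 37947 gene symbols in the deposited table. They are Odc1, Amd1, Amd2, Srm and Sms for synthesis, Smox and Sat1 for breakdown, Oaz1 and Oaz2 for the antizymes, and Azin1 for the antizyme inhibitor. The genes were listed by symbol with earlier results of these data known. The transcript that stands for each gene was chosen by its measured values, as the one with the highest mean log2 FPKM over all 10 libraries, a choice that does not use age.

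The libraries were made from gastrocnemius muscle of male C57BL/6 mice, 5 young (6 months) and 5 aged (24 months), with no genetic change or treatment in either group. Poly-A RNA was sequenced in paired-end reads, and the value for each transcript is log2 FPKM, the log2 of fragments scaled to the length of the transcript and to the mapped fragments of the library, in which an FPKM under 1 is listed as 0. The labels number the libraries 1 to 5 at each age and do not name the mice, so the p-values measure the spread between these samples. The whole gastrocnemius holds several cell types, and fewer cells of a type cannot be told apart from less RNA per cell.

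The depths recovered from the table ran from 19886361 to 34554354 reads, so that an FPKM of 1 on a 1 kb transcript stood for 19.9 to 34.6 reads. The summed FPKM of 6 fast and general muscle fiber markers was 88047 to 104531 in young and 80218 to 96645 in aged libraries. The satellite cell genes Pax7 and Myf5 were listed at 0 in every library. Aged library 3 stood apart, with 29878 transcripts above 0 against 35024 to 43296 in the other libraries. Aged library 3 was the lowest or highest of the aged libraries for 79.4% of the 10161 genes tested. Aged library 5 was so for 42.9%, near the share that an even spread over the aged libraries would give.

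The regions around the RefSeq start sites of Smox, Amd1 and Odc1 are shown because Smox and Amd1 had aged values below all young values and Odc1 encodes the first enzyme. Each runs from 250 bases before the start to 50 bases after it (GRCm38), is written 5′ to 3′ on the strand of the gene, and has matches to the GC box (GGGCGG, or CCGCCC where it lies on the other strand) in capitals.
Smox promoter, chr2:131491612-131491911, plus strand: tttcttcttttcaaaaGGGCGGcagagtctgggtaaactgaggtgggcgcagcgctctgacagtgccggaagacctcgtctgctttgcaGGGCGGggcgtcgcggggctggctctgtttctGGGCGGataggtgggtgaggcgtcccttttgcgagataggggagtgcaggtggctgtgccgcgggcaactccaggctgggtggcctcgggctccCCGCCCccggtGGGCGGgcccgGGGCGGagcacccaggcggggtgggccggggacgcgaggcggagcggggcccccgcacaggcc
Amd1 promoter, chr10:40302139-40302438, minus strand: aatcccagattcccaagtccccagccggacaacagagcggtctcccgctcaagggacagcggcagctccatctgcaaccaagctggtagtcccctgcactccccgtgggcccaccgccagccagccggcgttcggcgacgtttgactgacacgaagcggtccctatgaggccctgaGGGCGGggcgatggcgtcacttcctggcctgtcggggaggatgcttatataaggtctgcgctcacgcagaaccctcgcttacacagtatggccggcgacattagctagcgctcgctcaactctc
Odc1 promoter, chr12:17544623-17544922, plus strand: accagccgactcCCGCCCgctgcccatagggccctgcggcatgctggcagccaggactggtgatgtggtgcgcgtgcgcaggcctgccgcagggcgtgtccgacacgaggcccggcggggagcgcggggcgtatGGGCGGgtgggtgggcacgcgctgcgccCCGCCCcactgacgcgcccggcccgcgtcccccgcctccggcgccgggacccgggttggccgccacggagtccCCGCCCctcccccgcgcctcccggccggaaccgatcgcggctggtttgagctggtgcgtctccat
The Smox window held 6 GC boxes in 300 bases, the Odc1 window 4 and the Amd1 window 1. Promoter entries were matched for 8 of the 10 genes, Sms having 2 start sites. At least 1 GC box lay in 6 of these 9 windows (Amd1, Oaz2, Odc1, Sat1, Smox and 1 window of Sms), while 35.7% of 32851 mouse promoters of this length held one. The E-box CACGTG, the site that Myc and its partner Max bind, lay in 1 of the 9 windows, that of Sms, against 7.15% of all promoters. Sites outside these windows, such as in introns, were not searched, so a window without a match does not show that a gene lacks the site.

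Per length, the levels of the pathway spanned more than 7 log2 units in young muscle. Oaz1 (9.51 ± 0.34 log2 FPKM, SD, n = 5) and Amd1 (9.48 ± 0.19) were at the top and did not differ beyond their spread. Smox followed at 8.24 ± 0.26, then Oaz2 at 6.79 ± 0.11 and Odc1 at 6.68 ± 0.50, which lay within each other's spread, and Sms at 5.94 ± 0.51. Sat1 (3.11 ± 0.27) and Azin1 (2.64 ± 0.29) were far lower, and Srm was lowest of the genes detected at 1.75 ± 0.46. In aged muscle the order was Oaz1 (9.46 ± 0.31), Amd1 (8.57 ± 0.93), Smox (7.13 ± 1.04), Odc1 (6.94 ± 0.58), Oaz2 (6.77 ± 0.20), Sms (5.74 ± 1.73), Sat1 (3.80 ± 0.60), Azin1 (2.78 ± 0.47) and Srm (2.12 ± 0.43). Amd2 was listed at 0 in all 10 libraries.

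**Figure D1:**
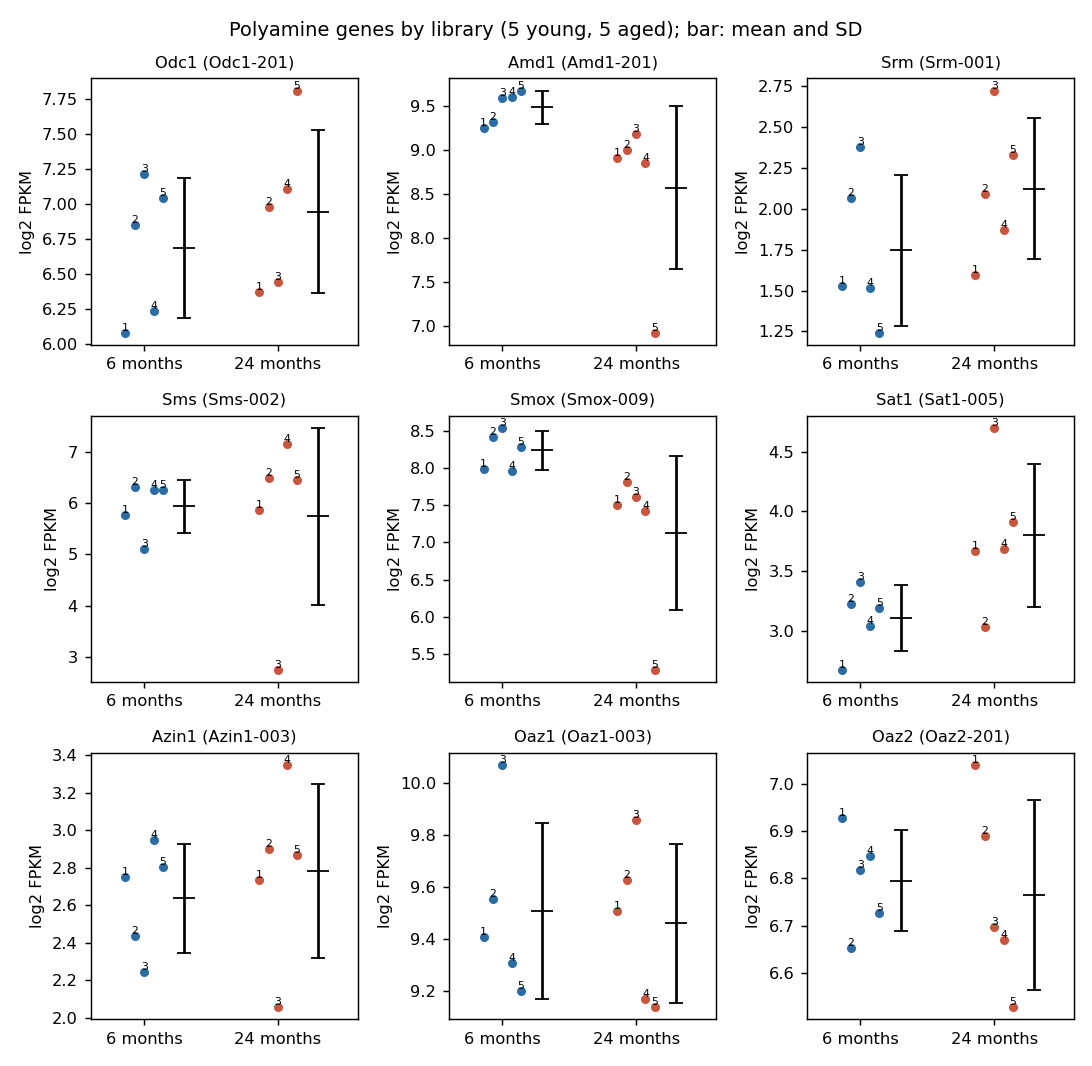
The y axes give log2 FPKM of the transcript that stands for each of the 9 detected polyamine genes, with its own range in each panel. Points are libraries marked with their number (blue 6 months, red 24 months) and bars show the mean and SD of 5 libraries. All 5 aged points lie below all 5 young points for Amd1 and Smox, and aged library 5 lies far below the others in both.

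Before adjustment, the 95% interval of the difference, aged minus young, lay below 0 for Smox and Amd1 and above 0 for Sat1. The other 6 detected genes had 95% intervals that include 0. None of the 9 genes tested passed the test across all transcripts (limma, Benjamini-Hochberg adjusted p over 38059 transcripts, each at 1.00 after rounding). Of all 10161 genes tested at their highest transcript, that test called 0.00984% higher and 0.0% lower in aged muscle. At an unadjusted limma p under 0.05, Sat1 was the 1 gene that was higher, with a background of 6.05% of all genes, and Smox and Amd1 were the 2 that were lower, with a background of 0.876%. The 5 young and 5 aged libraries did not overlap for Smox and Amd1, the lower direction being shared by 0.344% of all genes. None of the 9 was higher without overlap, against 2.08% of all genes. By the criteria of the study, a change above 2-fold with an unadjusted p under 0.05 on log2 FPKM, Smox was the 1 gene that was lower (background 0.0689%) and none was higher (background 1.04%). The unadjusted exact permutation test at p under 0.05 gave Sat1 as higher (background 7.73%) and Smox and Amd1 as lower (background 1.5%). The genes were listed with these results known, so their share is a description and not evidence about the pathway.

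The median difference, aged minus young, was -0.03 log2 units over the 9 genes and 0.07 over all 10161 genes tested. The central 95% of all genes ran from -0.59 to 0.83. Smox and Amd1 lay below that range, with 45 and 65 genes at a lower difference, and the other 7 genes lay within it.

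**Figure D2:**
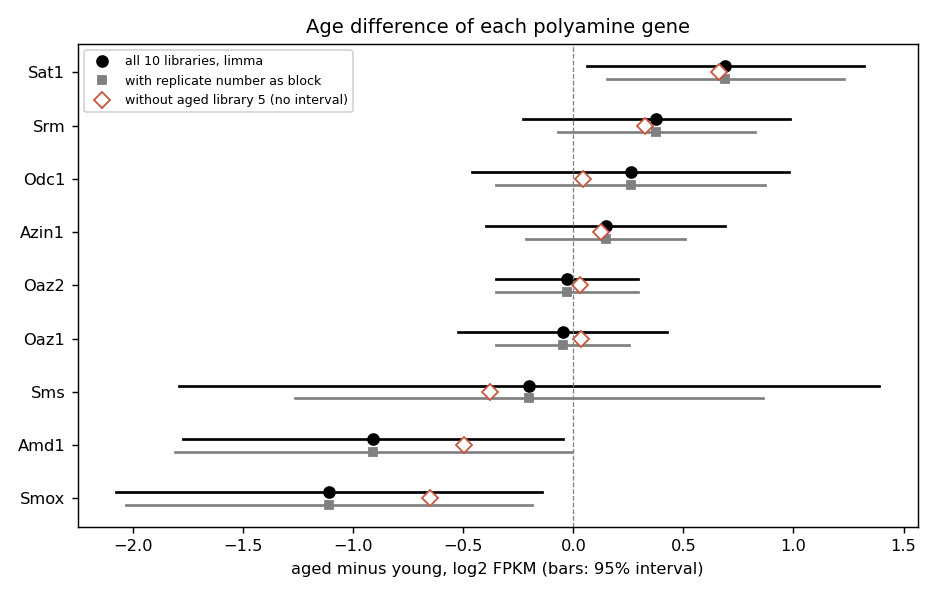
The x axis gives the difference in mean log2 FPKM, aged minus young, for the 9 detected genes, with 95% intervals from limma without (black) and with (grey) the library number as a block, and open diamonds for the difference without aged library 5. The intervals of Smox, Amd1 and Sat1 leave out 0 in both fits, and the diamonds of Smox and Amd1 stay below 0 at -0.65 and -0.50.

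Odc1, on chr12:17544794-17551505, encodes ornithine decarboxylase, the first and rate-limiting enzyme of the pathway. Its log2 FPKM was 6.08, 6.85, 7.22, 6.23 and 7.04 in young libraries 1 to 5. It was 6.37, 6.98, 6.44, 7.11 and 7.81 in aged libraries 1 to 5. The ages overlapped, and aged library 5 had the highest Odc1 value of all 10 libraries. The difference was 0.26 (limma SE 0.32, 95% interval -0.46 to 0.98, two-sided exact permutation p = 0.444), and it was 0.04 without aged library 5.

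Amd1, on the minus strand of chr10:40287458-40302186, encodes S-adenosylmethionine decarboxylase, which supplies the aminopropyl groups for spermidine and spermine. Its log2 FPKM was 9.24, 9.31, 9.59, 9.59 and 9.67 in young libraries 1 to 5. It was 8.90, 8.99, 9.18, 8.85 and 6.93 in aged libraries 1 to 5. Every aged library was below every young one, and aged library 5 minus the median of the other aged libraries was -2.02 log2 units. The mean was 1.88-fold lower in aged muscle, a difference of -0.91 on the log2 scale (limma SE 0.39, 95% interval -1.77 to -0.05, unadjusted p = 0.0407, adjusted p = 1.00). The two-sided exact permutation test gave p = 0.00794, the smallest that 5 against 5 libraries allow. With the library number as a block, the unadjusted limma p was 0.0479 and the adjusted p was 0.605. Without aged library 5 the difference was -0.50 (exact permutation p = 0.0159), so that library moved the value by over 1.5 times. The row rests on 7881 to 85191 reads in a library, and counting error is small beside the spread between libraries.

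Amd2, on the minus strand of chr10:35708675-35711892, is a near-copy of Amd1 without introns in the annotation. In GENCODE the transcripts are 3204 and 3218 bases long and share 3190 of 3204 aligned bases (99.6%), and their coding sequences differ at 1 of 1002 bases. Of the 3129 windows of 76 bases, the read length, in the Amd1 transcript, 2481 (79.3%) occur unchanged in Amd2. A read in those windows can be placed only where its mate differs between the copies, so that the value of Amd1 may hold some reads from Amd2, and the 0 of Amd2 does not show that it was silent.

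The 3′ UTR of Amd1 holds 1 match to the seed of miR-132-3p, a microRNA that is listed with Amd1 among the predicted pairs of the study. MicroRNA values were not analysed here. The mature microRNA (chr11:75173723-75173744, plus strand) has its seed in capitals, and the 30-base window of Amd1 (chr10:40288901-40288930, minus strand, with the match starting at base 1744 of 3204) has the bases that pair with it in capitals.
miR-132-3p: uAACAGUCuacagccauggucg
Amd1 site: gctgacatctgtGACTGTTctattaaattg
Such a match is a description of the letters and not a measure of regulation.

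Srm, on chr4:148591503-148594993, encodes spermidine synthase. Its log2 FPKM was 1.53, 2.07, 2.38, 1.51 and 1.24 in young libraries 1 to 5. It was 1.60, 2.09, 2.72, 1.87 and 2.33 in aged libraries 1 to 5. The ages overlapped. In 5 of 5 comparisons the aged library was above the young library of the same number, but the labels do not say that same-numbered libraries belong together. The difference was 0.38 (limma SE 0.27, 95% interval -0.23 to 0.98, exact permutation p = 0.206), and the unadjusted limma p was 0.197 without and 0.0870 with the block. The row rests on 63 to 281 reads in a library.

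Sms, on the minus strand of chrX:157443855-157492287, encodes spermine synthase, and it depended on the transcript read. The highest row, Sms-002, has the length of a 321-base transcript at the 5′ end of the gene. It was at 5.77, 6.32, 5.11, 6.24 and 6.26 in young and 5.86, 6.48, 2.76, 7.14 and 6.45 in aged libraries 1 to 5. Aged library 3, with 69 reads, was the lowest, at -3.71 log2 units from the median of the other aged libraries. The difference was -0.20 (limma SE 0.72, 95% interval -1.79 to 1.39, exact permutation p = 0.921) and turned to 0.54 without aged library 3. The whole-length transcript Sms-001 (3717 bases) was at 5.17, 5.49, 5.20, 5.28 and 5.36 in young and 5.27, 5.59, 5.05, 5.79 and 5.58 in aged libraries, a difference of 0.16 (limma unadjusted p = 0.380). Neither row gave a difference in Sms beyond its error.

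Smox, on chr2:131491496-131525922, encodes spermine oxidase, which turns spermine straight back into spermidine with release of hydrogen peroxide. Its log2 FPKM was 7.98, 8.42, 8.54, 7.96 and 8.29 in young libraries 1 to 5. It was 7.50, 7.81, 7.62, 7.42 and 5.29 in aged libraries 1 to 5. Every aged library was below every young one, the highest aged value being 7.81 and the lowest young value 7.96. The mean was 2.16-fold lower in aged muscle, a difference of -1.11 on the log2 scale (limma SE 0.44, 95% interval -2.08 to -0.14, unadjusted p = 0.0281, adjusted p = 1.00). The two-sided exact permutation test gave p = 0.00794, the smallest the design allows. With the block the unadjusted limma p was 0.0250 and the adjusted p was 0.571. Aged library 5 had 1278 Smox reads, against 6202 to 10079 in the other aged libraries. Without it the difference was -0.65 (exact permutation p = 0.00794), so that library moved the value by over 1.5 times, and the criteria of the study were not met without it. The summed FPKM of 4 slow fiber markers was 13.8, 48.2, 159, 12.3 and 127 in young libraries 1 to 5. It was 580, 310.2, 197, 71.8 and 17.1 in aged libraries 1 to 5. The part of fiber type in the Smox and Amd1 values was not tested.

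The lower Smox values held over most of its transcripts. All 14 Smox transcripts were above 0 in every library and all 14 had a negative difference, from -1.48 to -0.91. The ages did not overlap in 11 of the 14. These rows share most of their reads and are not separate evidence. In Smox-014 and Smox-015 the overlap came from aged library 2, at 7.16 and 7.74 beside lowest young values of 7.07 and 7.72, while aged library 3 was far lower, at 3.84 and 4.50. In Smox-017 the overlap came from aged library 3, at 8.06.

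Sat1, on the minus strand of chrX:155213132-155216449, encodes spermidine/spermine N1-acetyltransferase, which marks polyamines for export or oxidation. Its log2 FPKM was 2.68, 3.23, 3.41, 3.04 and 3.19 in young libraries 1 to 5. It was 3.67, 3.03, 4.70, 3.68 and 3.91 in aged libraries 1 to 5. Of the aged libraries 4 were above every young one, and aged library 2 lay inside the young range. The mean was 1.61-fold higher in aged muscle, a difference of 0.69 on the log2 scale (limma SE 0.28, 95% interval 0.06 to 1.32, unadjusted p = 0.0347, adjusted p = 1.00). The two-sided exact permutation test gave p = 0.0397, and the unadjusted limma p with the block was 0.0194. Without the libraries numbered 3 the difference was 0.54 (exact permutation p = 0.114, the smallest possible for 4 against 4 being 0.0286). All 7 Sat1 transcripts had a positive difference, from 0.43 to 0.81, and in none were the ages without overlap. The summed FPKM of 6 macrophage markers moved the same way, at 15.2 to 39.5 in young and 28.9 to 137 in aged libraries. In aged libraries 1 to 5 the sum was 41.3, 28.9, 101, 137 and 60.7, so that aged library 2 was lowest in both the sum and Sat1, while the highest sum was in library 4 and the highest Sat1 in library 3. Of these markers 3 were above 0 in every library and none was at 0 in all. The part of macrophages in the Sat1 difference was not tested.

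Because Smox was lower and Sat1 higher, the gap between these breakdown genes narrowed on the log2 scale. Smox minus Sat1 was 4.92 to 5.30 in young libraries and 1.38 to 4.78 in aged libraries. Odc1 minus Smox was -1.90 to -1.24 in young and -1.17 to 2.53 in aged libraries, and Odc1 exceeded Smox only in aged library 5, where it also exceeded Amd1. These gaps follow from the values above and were not tested.

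The antizymes bind ornithine decarboxylase, carry it to the proteasome and lower polyamine uptake, and their translation needs a ribosomal frameshift that polyamines promote. Oaz1, on chr10:80826656-80829290, was at 9.41, 9.55, 10.07, 9.31 and 9.20 in young libraries 1 to 5. It was at 9.51, 9.63, 9.86, 9.17 and 9.14 in aged libraries 1 to 5. The ranges nearly coincided, with a difference of -0.05 (95% interval -0.52 to 0.43, exact permutation p = 0.825). Oaz2, on chr9:65668001-65690300, was at 6.93, 6.65, 6.82, 6.85 and 6.73 in young libraries 1 to 5. It was at 7.04, 6.89, 6.70, 6.67 and 6.53 in aged libraries 1 to 5, a difference of -0.03 (95% interval -0.35 to 0.29, exact permutation p = 0.802). The interval of Oaz2 was the narrowest of the 9 genes.

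Azin1, on the minus strand of chr15:38487427-38519266, encodes a relative of ornithine decarboxylase without enzyme activity that binds antizyme and so frees the enzyme. It was at 2.75, 2.43, 2.24, 2.95 and 2.80 in young libraries 1 to 5. It was at 2.73, 2.90, 2.06, 3.35 and 2.87 in aged libraries 1 to 5. The ages overlapped, with a difference of 0.15 (95% interval -0.40 to 0.69, exact permutation p = 0.571), and the library numbered 3 was the lowest of each age. Frameshifting, antizyme protein and enzyme activity are outside these measurements.

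Over all 10 libraries together, the Smox and Amd1 values were correlated. Over the 10 libraries their Pearson r was 0.97 and Spearman's rho 0.85, and r was 0.80 without aged library 5 and 0.95 after each age was set to its own mean. These values share libraries, depth and the low aged library 5, and are given as a description. The r without aged library 5 still holds the age difference, and the r within ages still holds aged library 5. Neither shows whether the genes follow each other within an age apart from that library. Over 8216 genes above 0 in all libraries, Amd1 was the gene most like Smox. Next came Tfrc, the transferrin receptor (r = 0.97), Trp53inp2 (0.96), Slc41a3 (0.96) and Wfdc1 (0.95). The genes most like Amd1 were Tfrc (0.97), Smox, Trp53inp2 (0.97), Slc41a3 (0.96) and Kcng4 (0.95). The ranking was by r over all 10 libraries and was not repeated without aged library 5. Without aged library 5 the r of these genes with Smox was 0.70 to 0.80 and with Amd1 0.67 to 0.83. Tfrc was at 4.07 ± 0.09 log2 FPKM in young and 3.17 ± 1.02 in aged libraries, with 1.44 in aged library 5.

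Odc1 had other neighbors. The most like it was Pdk4, a kinase that inhibits pyruvate dehydrogenase (r = 0.93, Spearman's rho 0.85, r = 0.88 without aged library 5). Pdk4 was at 9.81 log2 FPKM in aged library 5, above its means of 7.21 ± 1.28 in young and 7.62 ± 1.32 in aged libraries. The others were Fam207a (0.91), 1700088E04Rik (0.88), Nob1 (0.88) and Spata5 (0.88). The r of Odc1 with Smox was -0.50 over all libraries and 0.33 without aged library 5, so its sign rested on that library.

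**Figure D3:**
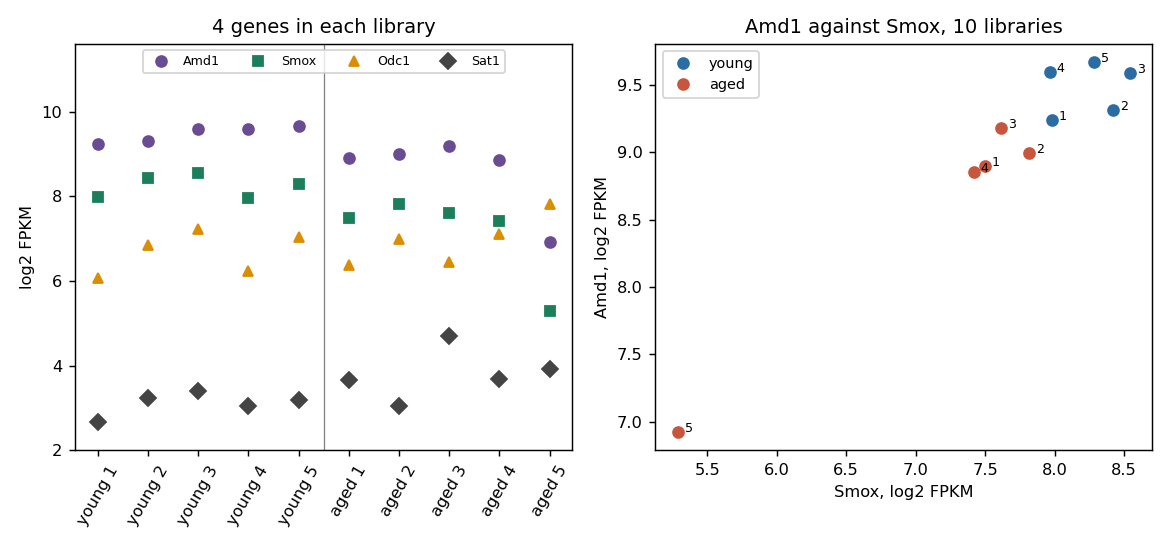
Left, log2 FPKM of Amd1, Smox, Odc1 and Sat1 in each of the 10 libraries, young left of the line and aged right of it. Right, Amd1 (y axis) against Smox (x axis) in log2 FPKM, with points numbered by library. Aged library 5 lies alone at 5.29 for Smox and 6.93 for Amd1. Among the other 9 libraries the aged points lie below the young points on both axes, so their common direction includes the age difference. Young library 4 has the lowest young Smox value (7.96) with Amd1 at 9.59.

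The transcripts of these genes also showed how the libraries numbered 3 differ. Of the 55 transcript rows of the 10 genes, 49 were above 0 in all libraries, and 36 of these could be placed along the longest coding transcript of their gene by their length. In aged library 3, the lowest rows of a gene, against the other aged libraries, were mostly those far from its 3′ end, and the highest were mostly those near it. Across genes the order was looser. Of 7 rows over 1700 bases from the 3′ end, 3 were lower by over 1 log2 unit (median gap -0.86). Of 29 nearer rows, 2 were (median gap 0.31). For Sms-002, on average 3214 bases from the 3′ end, aged library 3 minus the median of the other 4 was -3.71 log2 units. For Smox-015, at 2111 bases, it was -2.92. For Smox-017, at 1062 bases, it was 2.05, for Sat1-007, at 390 bases, 1.99, and for Oaz1-006, at 271 bases, 1.58. By their lengths Smox-017 and Sat1-007 are retained-intron transcripts, and the part of intron reads in their values was not tested. Smox-010, at 1150 bases and thus near Smox-017, was at 0.31. In young library 3 the same gap was -1.14 for Sms-002 and 0.92 for Oaz1-006, less extreme in both rows than in aged library 3. RNA quality values of the libraries were not analysed here, and the part of RNA quality in these gaps was not tested.

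**Figure D4:**
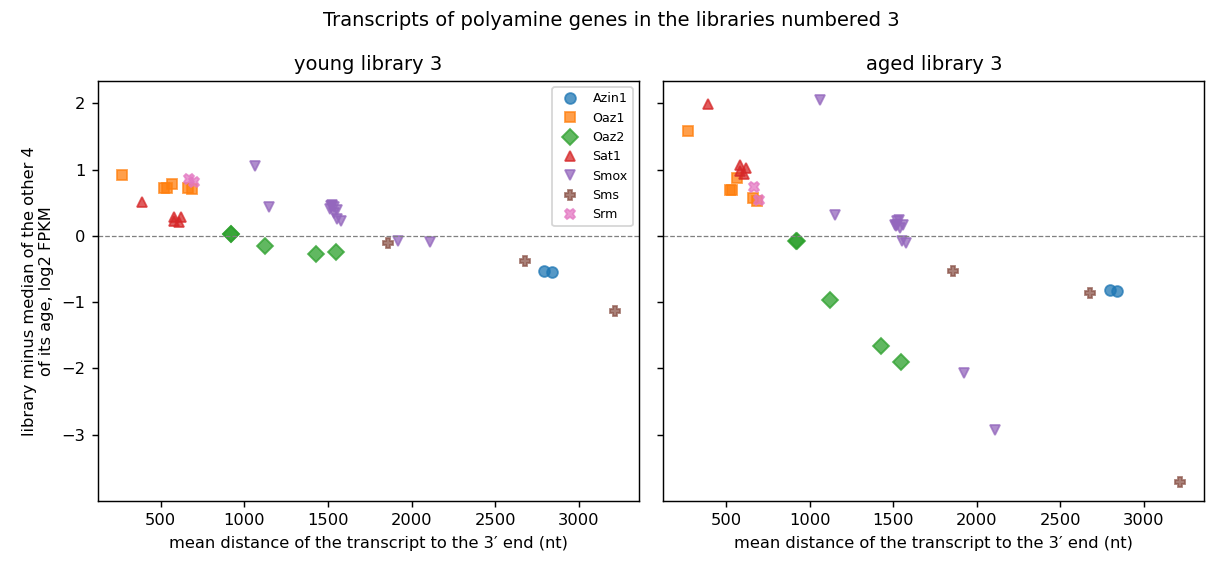
The y axes give log2 FPKM of young library 3 (left) or aged library 3 (right) minus the median of the other 4 libraries of its age, and the x axes the mean distance of each transcript to the 3′ end of the longest coding transcript in bases. Each point is 1 of 36 transcripts above 0 in all libraries. In aged library 3 the values run from 2.05 to -3.71, and the 3 lowest (Sms-002, Smox-015 and Smox-012) are among the rows farthest from the 3′ end in their gene.

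The wider pathway held 58 other genes with a row in the table, of which 18 were listed at 0 in every library, 5 had a mean FPKM under 1 and 35 were tested. None of the 35 passed the adjusted test (limma), with 4 higher and 0 lower at an unadjusted p under 0.05, where 6.05% of all genes were higher and 0.876% lower. The median of their differences was 0.08, with 18 positive and 17 negative. The ages did not overlap, in the higher direction, for 2 of the 35, beside 2.08% of all genes.

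Of the genes for arginine and ornithine supply, 5 were tested. Ass1, argininosuccinate synthase, was at 0.00, 0.13, 0.06, 0.00 and 0.00 in young and 0.94, 0.60, 0.27, 1.18 and 0.46 in aged libraries 1 to 5. Every aged Ass1 value was above every young one, but 3 young libraries were listed at 0 and the levels lie near the floor of the table. Its difference was 0.65 (limma SE 0.19, unadjusted p = 0.00550, adjusted p = 0.811). Gatm, the first enzyme of creatine synthesis, had a mean of 0.76 ± 0.52 in young and 1.53 ± 0.64 in aged libraries with overlap (limma unadjusted p = 0.0483, and 0.0920 with the block).

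Of the genes for methionine, S-adenosylmethionine and methylthioadenosine, 12 were tested, with 9 negative and 3 positive differences and none at an unadjusted limma p under 0.05. With the block, Ahcyl1, a relative of S-adenosylhomocysteine hydrolase, had an unadjusted limma p of 0.0282 (0.0832 without it) and an adjusted p of 0.574. Its difference was 0.37, with higher aged values in 5 of 5 comparisons of same-numbered libraries. The other breakdown and antizyme genes gave 3 tested genes, all with positive differences and none past the same limit. Polyamine transport gave 6 tested genes, of which 4 had negative differences. The hypusination genes, through which spermidine modifies the translation factor eIF5A, gave 3 tested genes, with differences of 0.14 for Dhps, -0.14 for Dohh and 0.10 for Eif5a, each with an interval that includes 0.

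Of the known regulators, 6 were tested. Myc, which activates transcription of Odc1, was at 1.01, 1.70, 0.78, 0.56 and 0.47 in young and 1.62, 1.59, 2.08, 2.04 and 1.96 in aged libraries 1 to 5. The ages overlapped through young library 2, and the difference was 0.96 (limma SE 0.24, unadjusted p = 0.00273, adjusted p = 0.684). Cdkn1a, the cell cycle inhibitor p21, was at 1.57, 2.56, 2.98, 1.53 and 2.71 in young and 3.56, 3.44, 4.24, 3.99 and 5.53 in aged libraries 1 to 5. The ages did not overlap, and the difference of 1.88 was the largest of the wider lists (limma SE 0.44, unadjusted p = 0.00144, adjusted p = 0.599, and 0.422 with the block).

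**Figure D5:**
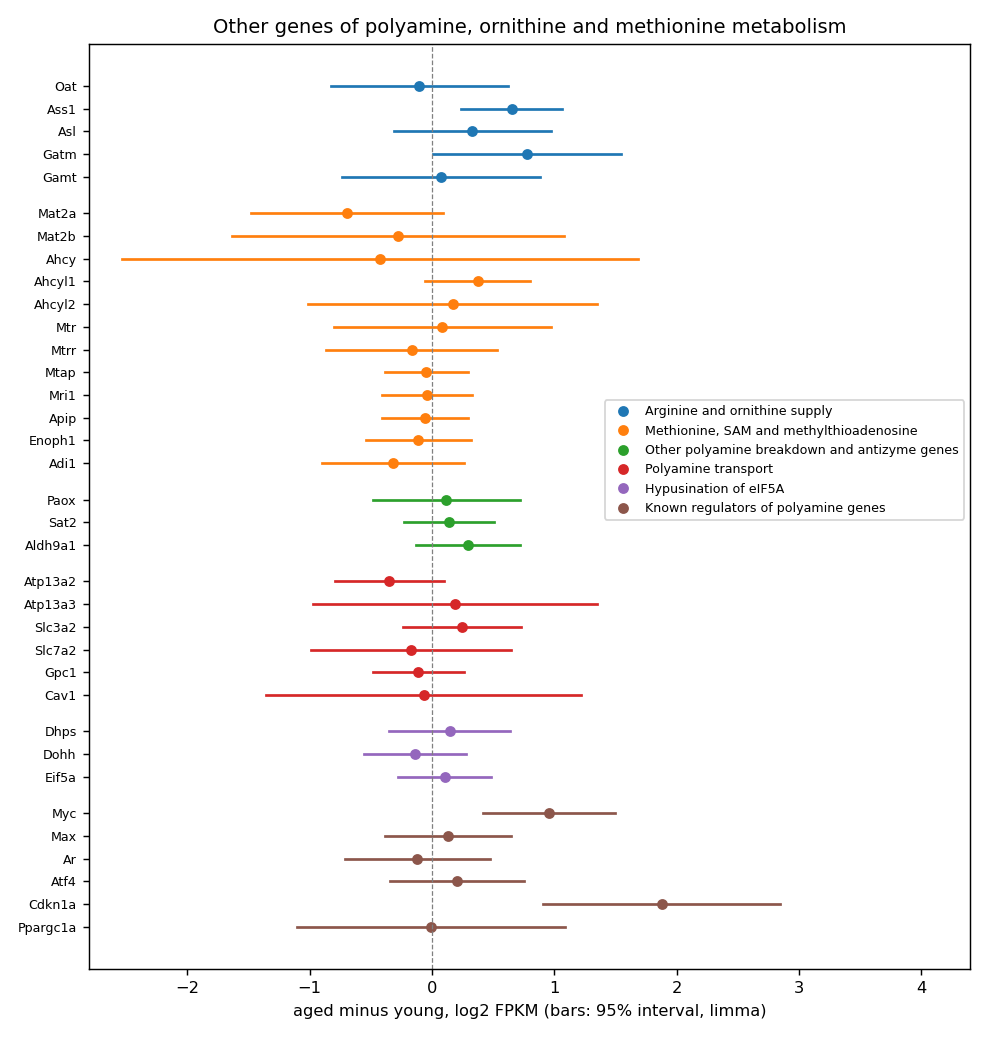
The x axis gives the difference in mean log2 FPKM, aged minus young, with 95% intervals from limma, for the 35 tested genes of the wider lists, grouped by colour. The intervals of Ass1, Gatm, Myc and Cdkn1a lie above 0 and those of the other genes include it.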

How the data were processed

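Poly-A RNA of gastrocnemius muscle from 5 young and 5 aged mice was analysed, grouped by the labels. The authors mapped paired-end reads to mm10 with TopHat2 and deposited log2 FPKM for each transcript and library, not pooled. The counting program is not given in the sources used here, and the methods name a RefSeq gene model while the rows are Ensembl and Vega transcripts. Values were used as deposited. Transcripts whose FPKM averaged 1 or more were compared by age in limma (version 3.58.1, R 4.3.3) with Benjamini-Hochberg adjustment at 0.05, and single values by exact permutation. The script was tested on simulated data. Depths and whole reads were recovered from the steps between values, with a tolerance of 0.02 reads, and used only for precision. The genes and the wider lists were chosen with earlier results of these data known. The text names all 10 genes, the 5 genes most like Smox, Amd1 and Odc1 each, and wider genes with an unadjusted p under 0.05 or ages without overlap. Azin2 and Aoc1 were read under their older symbols Adc and Abp1. Deviations of same-numbered young and aged libraries correlated at 0.131, 0.332, 0.695, 0.390 and 0.208 for numbers 1 to 5. The labels do not say what a number marks, and the numbers were taken as pairs only from these correlations. A fit with the number as a block was run. Alternatives covered the pseudocount, filters, scaling, transcript choice, array weights and leaving out libraries. Sequences and positions are from RefSeq and GENCODE M21 (GRCm38).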

Additional observations from a re-analysis of the deposited data

Results flagged for a closer look

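For 2 genes a single aged library lay apart from the other 4 by Dixon's test, in which the gap to the nearest library divided by the range of the group exceeds 0.71. Amd1 in aged library 5 was at 6.93 log2 FPKM, with a gap of 0.854 of the range. Smox in aged library 5 was at 5.29, with a gap of 0.844 of the range. Both age differences keep their direction without that library and are given above with and without it. Chance flags about 1 in 20 groups, 18 groups of the polyamine genes were tested, and 22.0% of the 10161 genes tested passed the same limit in the aged group. Aged library 5 lay over 2 log2 units below the median of the other aged libraries for 64 genes (0.630%), a limit set after seeing the values.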

How the results depend on the processing

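Precision was limited by the spread between 5 libraries an age and, for Ass1 and other low genes, by the listing of an FPKM under 1 as 0. Smox, Amd1, Sat1, Srm, Odc1 and Azin1 kept their direction under all 20 alternatives run for each, with Smox from -1.28 to -0.65, Amd1 from -1.06 to -0.50 and Sat1 from 0.46 to 0.88. Single libraries moved the other 3 by over 1.5 times, Srm to 0.23 without aged library 3, Azin1 to between 0.0042 (without aged library 4) and 0.33 (without aged library 3), and Odc1 to between 0.042 (without aged library 5) and 0.40 (without aged library 1), or 0.52 without both libraries numbered 3. Over these alternatives the unadjusted limma p ran from 0.00486 to 0.0588 for Smox, 0.00992 to 0.0768 for Amd1 and 0.00734 to 0.0895 for Sat1, passing 0.05 when some single libraries were left out and, for Sat1, under quantile and median-of-ratios scaling. The lowest adjusted p of any polyamine gene was 0.347 in these fits and 0.132 with array weights. The difference of Sms turned positive with the mean of all its transcripts (0.034), the sum of FPKM (0.11), without both libraries numbered 3 (0.34) and with the whole-length transcript, chosen after seeing the data (0.16). Leaving out 1 library in turn gave -0.55 to 0.54 for Sms, the positive value without aged library 3, -0.15 to 0.093 for Oaz1 and -0.098 to 0.030 for Oaz2. The cause was not tested. Genes called by adjusted p remained at 0 of the 9 polyamine genes under every limma alternative, and at 0 of the wider genes except with array weights, which called 2 of 35 higher (Ass1 and Cdkn1a) beside 6.03% of all genes. Without adjustment, the exact permutation test called 3 polyamine genes and 3 wider genes (7.73% of all genes higher and 1.5% lower), and the criteria of the study called 1 and 1 (1.04% and 0.0689%). With the library number as a block 0 polyamine genes and 0 wider genes were called, so the pairing changed no adjusted call. The alternative without a filter used rows above 0 in at least 1 library, since rows at 0 throughout cannot be tested.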
